A study of Homo sapiens with 9 samples.

Results

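The miR-200 family is a group of mature miRNAs cut from 5 hairpins at 2 genomic loci, and its 9 members were taken from the count table by name. They were hsa-miR-200b-3p, hsa-miR-200b-5p, hsa-miR-200a-3p, hsa-miR-200a-5p and hsa-miR-429 of the locus with MIR200B, MIR200A and MIR429 on chromosome 1, and hsa-miR-200c-3p, hsa-miR-200c-5p, hsa-miR-141-3p and hsa-miR-141-5p of the locus with MIR200C and MIR141 on chromosome 12. The species prefix is left out from here on. These are 9 of the 1198 mature miRNAs listed, and 8 of them passed the filter on low counts, which kept 367 miRNAs in all. The member left out, miR-200c-5p, had 4 to 23 counts per library.

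A miRNA guides the silencing complex to messenger RNAs that carry a match to its seed, the bases 2 to 8 from the 5′ end, and it lowers their translation and stability. The miR-200 family is abundant in epithelial cells and is known for targeting ZEB1 and ZEB2, repressors of E-cadherin that drive the epithelial-mesenchymal transition, while ZEB1 in turn represses both miR-200 loci through E-box sequences in their promoters. Loss of the family is a widely used sign of a mesenchymal shift in carcinoma cells, and its presence a sign of epithelial identity.

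The study compared 3 lines, each with 3 biological replicates, so that 9 small RNA libraries were analysed. HCT116 is an established human colorectal carcinoma line and served as the parental control. The subline HCT-Oxa-c had been derived from it by continuous culture in rising concentrations of oxaliplatin, a platinum compound that crosslinks DNA, and HCT-FU-c in the same way with 5-fluorouracil (5-FU), an antimetabolite that blocks thymidylate synthase. Each drug is represented by 1 selected subline, so that replicates show how samples of that subline vary and not how independent selections would. No genetic change was engineered in any of the lines, and the sources disagree on the medium, which is DMEM in the study's methods and an RPMI medium in the sample labels. The question for the family was whether the sublines kept the epithelial miRNA level of the parental line, at both loci and for each member.

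The mature sequences are shown because the family falls into groups by seed, and each group has its own set of possible targets. Sequences were found for 8 of the 9 members in RefSeq (GRCh38.p14) and run from 5′ to 3′, with the seed in capitals.
miR-200b-3p: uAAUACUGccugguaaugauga
miR-200c-3p: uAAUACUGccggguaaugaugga
miR-429: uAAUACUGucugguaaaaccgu
miR-200a-3p: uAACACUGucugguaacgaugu
miR-141-3p: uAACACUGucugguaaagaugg
miR-200b-5p: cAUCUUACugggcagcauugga
miR-200a-5p: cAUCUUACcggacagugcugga
miR-200c-5p: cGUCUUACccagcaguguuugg

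The 5 members of the 3p side divided into the seed AAUACUG (miR-200b-3p, miR-200c-3p and miR-429) and the seed AACACUG (miR-200a-3p and miR-141-3p). Both groups therefore had members at both loci. Among the 2370 mature human miRNAs of the reference, the first seed occurred in 3 and the second in 2, so neither was found outside the family. Of the members on the 5p side, miR-200b-5p and miR-200a-5p shared the seed AUCUUAC, while miR-200c-5p had GUCUUAC, which miR-550a-3p outside the family also carries.

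The paralogs are close in sequence beyond the seed. Counted from the 5′ end over the first 22 bases, miR-200b-3p and miR-200c-3p were identical at 20, and the substitutions from the former to the latter were U11G and A22G. From miR-200a-3p to miR-141-3p they were C17A and U22G, again with 20 of 22 bases identical. From miR-200b-3p to miR-200a-3p there were U4C, which lies in the seed, and C9U, U17C and A22U. How many mismatches the read counting allowed is not given in the sources used here, so the division of reads between these close pairs is uncertain to that extent.

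In the GENCODE 29 annotation of GRCh38, MIR200B lies on the plus strand of chromosome 1 from 1167104 to 1167198, MIR200A from 1167863 to 1167952 and MIR429 from 1169005 to 1169087. These 3 hairpins span 1984 bases and overlap no other annotated transcript, and the nearest protein-coding gene, TTLL10, starts 4797 bases beyond MIR429. On the plus strand of chromosome 12, MIR200C lies from 6963699 to 6963766 and MIR141 from 6964097 to 6964191. This pair spans 493 bases and lies in intron 1 of the long noncoding RNA MIR200CHG (transcript MIR200CHG-201), with the protein-coding gene PHB2 1136 bases from MIR141.

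RefSeq lists a host gene with a promoter window for each locus, MIR200BHG and MIR200CHG, each window covering 300 bases around the gene's start. The E-box bound by ZEB1 and the SNAI factors was searched as CACCTG on both strands, and the stretches around it are shown because this element links the family to the epithelial-mesenchymal transition. The window of MIR200BHG held 2 matches and that of MIR200CHG held 1, all on the plus strand, with the motif in capitals below.
MIR200BHG, chr1:1162763-1162792: gcccaggggacaCACCTGtcgggggccagg
MIR200BHG, chr1:1162807-1162836: agcgggagctcgCACCTGtgtggggcgggg
MIR200CHG, chr12:6963155-6963184: ggcaggaggacaCACCTGtgcgcagggtgg
At least 1 match was found in 7231 of the 35116 promoter windows of the reference (20.6%), and 2 or more in 1227 of them (3.49%). The matches are a description of the sequence, and binding was not measured.

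The libraries held 856383 to 2207538 counts, and replicate 3 was the shallowest library of each line. A single miRNA, miR-21-5p, took 40.0% to 57.1% of each library. Levels are given as counts per 1000000 counts (CPM) on library sizes scaled by TMM, which assumes that most miRNAs do not differ between libraries. A count of 3, which corresponds to 1.34 to 4.01 CPM, was taken as the floor. The reads are PCR products, and no source used here says that they were collapsed by molecular identifier, so the floor covers counting error only. The replicate 3 libraries stood apart from the others in all 3 lines. Deviations of the libraries from their line means correlated at 0.69 to 0.73 between replicate 3 libraries of different lines and at -0.66 to -0.46 between replicate 3 and other libraries. Replicate 3 was also the only one with the red blood cell miRNA miR-451a above the floor, at 86 counts (HCT116), 70 (HCT-FU-c) and 246 (HCT-Oxa-c) against 0 to 2 in the other 6 libraries. Results are therefore given with the replicate number as a block, or without replicate 3, where that changes them.

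The family was abundant in all 3 lines, and its share of the library hardly separated them. In replicates 1, 2 and 3 it took 2.72%, 2.43% and 1.74% of all counts in HCT116. Those shares were 2.54%, 3.21% and 1.87% for the HCT-FU-c libraries, and for the HCT-Oxa-c libraries they were 2.51%, 2.45% and 1.92%. The lowest share of each line was that of replicate 3, and the ranges of the 3 lines overlapped. The means were 2.30 ± 0.50% (HCT116), 2.54 ± 0.67% (HCT-FU-c) and 2.29 ± 0.33% (HCT-Oxa-c) (SD, n = 3), so every difference between lines was smaller than the spread between replicates.

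Within the family a pair of close paralogs carried most of the reads. By mean CPM over the 9 libraries, miR-200c-3p ranked 15th and miR-200b-3p 18th of the 1198 miRNAs, and together they made up 77.4% to 83.6% of the family's counts. They were followed by miR-429 at rank 46, miR-200a-3p at 57 and miR-141-3p at 74. The 5p members were lower, with miR-200a-5p at rank 101, miR-200b-5p at 122, miR-141-5p at 267 and miR-200c-5p at 355. The seed AAUACUG thus accounted for 86.8% to 91.6% of the family's counts in a library and the seed AACACUG for 6.04% to 12.001%.

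Of the members with the seed AAUACUG, miR-200c-3p measured 11361, 10156 and 9124 CPM (HCT116), 9716, 11299 and 9116 (HCT-FU-c) and 10567, 10138 and 9378 (HCT-Oxa-c). The 3 lines covered the same range, and their means lay between 10027 and 10214 CPM. Its paralog miR-200b-3p measured 10556, 9380 and 7222 CPM (HCT116), 9198, 8109 and 7921 (HCT-FU-c) and 10569, 10103 and 8324 (HCT-Oxa-c). It was higher in each HCT-Oxa-c library than in the HCT116 library of the same number, by total counts in 2 of 3 pairs, and the lines overlapped. In this order of levels miR-200c-3p and miR-200b-3p are neighbours whose ranges overlapped, with miR-200b-3p the lower within 8 of the 9 libraries and a log2 ratio of miR-200b-3p to miR-200c-3p of -0.17 ± 0.16 (SD, n = 9).

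The other member with this seed, miR-429, measured 1919, 2260 and 1854 CPM (HCT116), 2052, 2351 and 1691 (HCT-FU-c) and 1672, 1465 and 1759 (HCT-Oxa-c). All HCT-Oxa-c libraries lay below all HCT116 libraries, by a small gap between 1759 and 1854 CPM, while HCT-FU-c overlapped both. This separation depends on the scaling, since per 1000000 total counts the levels were 1636, 1485 and 1576 for HCT-Oxa-c libraries and 1987, 2238 and 1621 for HCT116 libraries, which overlap. In the HCT-Oxa-c libraries the log2 ratio of miR-429 to miR-200b-3p, from the same locus, was -2.66, -2.79 and -2.24. It was -2.46, -2.05 and -1.96 in HCT116 and -2.16, -1.79 and -2.23 in HCT-FU-c. In every replicate number the ratio was lower in HCT-Oxa-c than in either other line, and the mean difference from HCT116 was -0.40 (pooled SD 0.28, n = 3 in each line).

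The members with the seed AACACUG were lower and differed between replicates. The HCT116 libraries held 1414, 1572 and 872 CPM of miR-200a-3p, those of HCT-FU-c held 1556, 1906 and 946, and those of HCT-Oxa-c held 1427, 1351 and 1071. Its genomic counterpart on chromosome 12, miR-141-3p, measured 645, 818 and 329 CPM (HCT116), 774, 1101 and 348 (HCT-FU-c) and 1004, 738 and 379 (HCT-Oxa-c). For both miRNAs the replicate 3 library was the lowest of every line, and both were higher in each HCT-FU-c library than in the HCT116 library of the same number.

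Of the 5p members, miR-200a-5p measured 222, 211 and 258 CPM (HCT116), 193, 180 and 220 (HCT-FU-c) and 268, 236 and 324 (HCT-Oxa-c). Each HCT-Oxa-c library lay above, and each HCT-FU-c library below, the HCT116 library of its number, although by total counts HCT-FU-c was below in 2 of 3 pairs. With either scaling the ranges of the 2 sublines did not overlap. The levels of miR-200b-5p were 124, 102 and 207 CPM (HCT116), 125, 92.4 and 208 (HCT-FU-c) and 145, 149 and 158 (HCT-Oxa-c), so the lines overlapped, and replicate 3 was the highest of each line with this scaling. At the lower end, miR-141-5p had 20, 30 and 5 counts (HCT116), 16, 39 and 14 (HCT-FU-c) and 25, 33 and 17 (HCT-Oxa-c). The lowest member, miR-200c-5p, had 8, 16 and 4 counts, 7, 6 and 4 counts, and 4, 23 and 4 counts in the same order of lines, which is too close to the floor of 3 counts for a comparison.

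**Figure D1:**
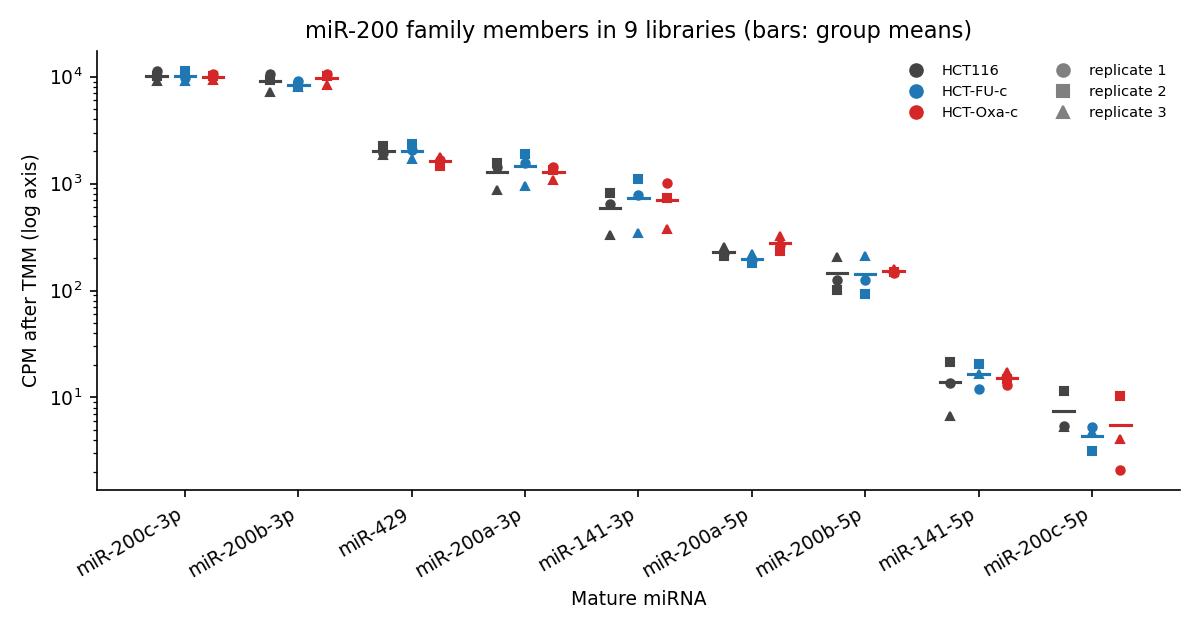
CPM after TMM scaling (log axis) of the 9 members in every library, with colours for the lines, symbols for the replicates and bars for the means of 3 libraries. The members span from 9116 to 11361 CPM for miR-200c-3p down to single counts for miR-200c-5p, and for each member the libraries of the 3 lines overlap in at least 1 comparison.

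The design asks first whether oxaliplatin selection moved the family away from the parental level. The test was edgeR's quasi-likelihood test on the raw counts, in 1 model of all 9 libraries, with Benjamini-Hochberg adjustment over the 367 tested miRNAs and a call at an adjusted p below 0.05. In HCT-Oxa-c against HCT116 none of the 8 tested members was called, where 2.45% of all tested miRNAs were (9 of 367). At an unadjusted p below 0.05 the count was likewise 0 of 8 members, against 10.4% of all tested miRNAs, and DESeq2 called 0 members and 6.27% of all. The log2 fold changes ran from -0.30 for miR-429 to 0.26 for miR-200a-5p with a median of 0.07, beside a median of -0.01 over all tested miRNAs, and adjusted p-values were 0.841 or higher.

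The intervals show how large a change would have been compatible with these libraries. For miR-200c-3p the log2 fold change in HCT-Oxa-c was -0.03 with a 95% interval from -0.45 to 0.40, which corresponds to 0.730 to 1.32 times the HCT116 level. For miR-200b-3p it was 0.09, from -0.39 to 0.58. For miR-429 it was -0.30, from -0.79 to 0.18 (adjusted p = 0.841, edgeR's quasi-likelihood test), and without HCT116 replicate 2 it was -0.16. This was the 1 member of 8 whose libraries did not overlap between the lines after TMM scaling, where 16.1% of all tested miRNAs did not. The interval was widest for miR-141-3p, from -0.91 to 1.40, which corresponds to 0.532 to 2.63 times the HCT116 level.

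In HCT-FU-c against HCT116 again 0 of the 8 members was called, as was none of the 367 tested miRNAs (0.0%). Unadjusted p-values below 0.05 were found for 0 members and for 4.09% of all, and DESeq2 called 0 members and 1.09% of all. The log2 fold changes ran from -0.22 for miR-200a-5p to 0.31 for miR-141-3p with a median of 0.00, and all adjusted p-values were 0.997. Among the abundant members, miR-200c-3p gave -0.02 (95% interval -0.45 to 0.40), miR-200b-3p -0.11 (-0.59 to 0.38) and miR-429 0.01 (-0.47 to 0.50). No member separated the libraries of these lines completely, against 8.72% of all tested miRNAs. This comparison and the previous one share the HCT116 libraries.

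When both sublines were compared with each other, 0 of the 8 members was called, against 4.36% of all tested miRNAs. At an unadjusted p below 0.05 there were 0 members and 16.9% of all, and DESeq2 called 0 members and 11.7% of all. The largest difference was that of miR-200a-5p, which was 1.40 times as high in HCT-Oxa-c as in HCT-FU-c, with a log2 fold change of 0.48 (95% interval -0.02 to 0.99, adjusted p = 0.326, edgeR's quasi-likelihood test). It was the 1 member of 8 whose libraries did not overlap, against 22.9% of all tested miRNAs. At the other end miR-429 was lower in HCT-Oxa-c by a log2 fold change of -0.32 (-0.80 to 0.17).

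Taking the replicate number into the model narrowed the intervals and changed 1 call. With this block the median standard error of all tested miRNAs fell from 0.463 to 0.283, and that of miR-141-3p from 0.51 to 0.17. The difference of miR-200a-5p between the sublines was then 0.48 ± 0.17 (SE), with a 95% interval from 0.13 to 0.82 and an adjusted p of 0.0389 by edgeR's quasi-likelihood test. It was the 1 called member of 8 in a comparison where 26.4% of all tested miRNAs were called. Against HCT116 the same miRNA gave 0.26 (-0.09 to 0.60) in HCT-Oxa-c and -0.22 (-0.57 to 0.13) in HCT-FU-c, neither of them called. With replicates 1 and 2 only, a setting added after the data were seen, its difference between the sublines was 0.51 with an adjusted p of 0.0891. In that setting 0 members were called in any comparison, where 17.6% of all tested miRNAs were called between the sublines, 11.3% for HCT-Oxa-c against HCT116 and 3.42% for HCT-FU-c against HCT116.

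With the block no member was called in HCT-Oxa-c or HCT-FU-c against HCT116, where 14.7% and 5.45% of all tested miRNAs were. The interval of miR-429 in HCT-Oxa-c then ran from -0.61 to 0.02 around -0.29 (adjusted p = 0.240, edgeR's quasi-likelihood test). That of miR-200c-3p ran from -0.32 to 0.28 in either subline, and that of miR-141-3p from -0.11 to 0.61 in HCT-Oxa-c and from -0.09 to 0.63 in HCT-FU-c. The abundant members were among the more precisely measured miRNAs already without the block, with standard errors of 0.19 for miR-200c-3p, 0.21 for miR-200b-3p and 0.21 for miR-429.

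**Figure D2:**
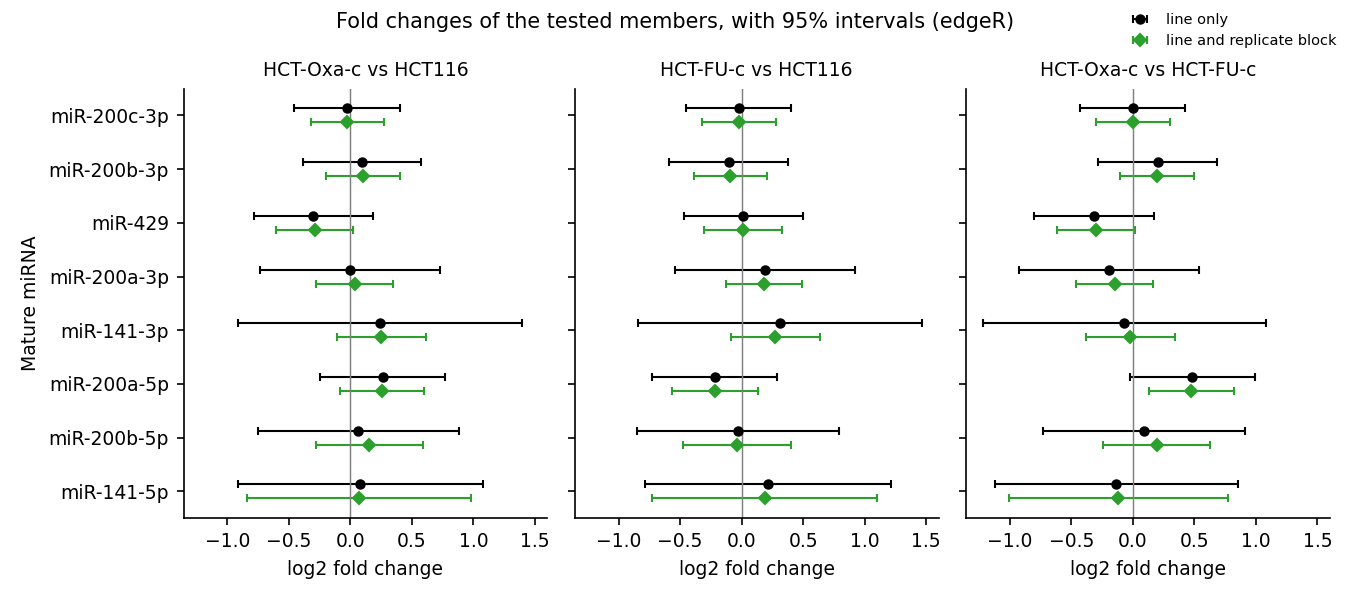
Log2 fold changes of the 8 tested members in the 3 comparisons, with 95% intervals from edgeR, for the model with the line only (black) and with the replicate block (green). Every interval includes 0 except that of miR-200a-5p in HCT-Oxa-c against HCT-FU-c with the block, which runs from 0.13 to 0.82.

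The sum over each locus shows whether the mature miRNA level of 1 locus moved while that of the other did not. Transcription was not measured. Each sum was mostly 1 miRNA, by means over the 9 libraries. At the chromosome 1 locus miR-200b-3p held 9042 of 12660 CPM, and at the chromosome 12 locus miR-200c-3p held 10095 of 10798 CPM. The division of reads between these paralogs is uncertain, as said above. At the chromosome 1 locus the 5 members summed to 14236, 13525 and 10413 CPM (HCT116), 13123, 12638 and 10986 (HCT-FU-c) and 14081, 13304 and 11636 (HCT-Oxa-c). At the chromosome 12 locus the 4 members summed to 12025, 11007 and 9465 CPM (HCT116), 10507, 12424 and 9486 (HCT-FU-c) and 11586, 10901 and 9778 (HCT-Oxa-c). Both loci were thus present in every library, and in replicate 3 both were at their lowest in each line. Between libraries of the same number the chromosome 1 locus was higher in HCT-Oxa-c against HCT-FU-c in 3 of 3 pairs, by 650 to 958 CPM (mean 758, SD of the paired differences 173). The chromosome 12 locus went both ways in these pairs, with a mean of -50.8 CPM (SD 1335). Per 1000000 total counts the chromosome 1 locus was higher in 1 of the 3 pairs, so this order depends on the scaling.

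The log2 ratio of the chromosome 1 to the chromosome 12 locus, which needs no scaling between libraries, was 0.24, 0.30 and 0.14 (HCT116), 0.32, 0.02 and 0.21 (HCT-FU-c) and 0.28, 0.29 and 0.25 (HCT-Oxa-c). It was above 0 in all 9 libraries, with the chromosome 1 locus at 50.4% to 55.5% of the family's counts. The means were 0.23 ± 0.08 (HCT116), 0.19 ± 0.15 (HCT-FU-c) and 0.27 ± 0.02 (HCT-Oxa-c) (SD, n = 3). Against HCT116 the ratio differed by 0.05 in HCT-Oxa-c, and by -0.04 in the subline HCT-FU-c, both smaller than the pooled SD of 0.06 and 0.12. No p-value was computed for sums over members.

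Each hairpin other than MIR429 gave reads from both arms, and the 3p arm dominated in all of them. For MIR200A the 5p arm made up 13.6%, 11.8% and 22.8% of the hairpin's counts in HCT116, while its shares were 11.02%, 8.61% and 18.9% for HCT-FU-c libraries and 15.8%, 14.9% and 23.2% for HCT-Oxa-c libraries. In each replicate number the order was HCT-Oxa-c, HCT116, HCT-FU-c from high to low. The log2 ratio of the 5p to the 3p arm of MIR200A was higher by 0.62 in HCT-Oxa-c against HCT-FU-c (pooled SD 0.56), with differences of 0.38 to 0.89 within replicate numbers. The 5p share was 1.08% to 2.79% for MIR200B, 1.29% to 4.58% for MIR141 and 0.0198% to 0.112% for MIR200C, and no line stood apart in these.

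The arm ratios of MIR200A and MIR200B followed the replicate number more than the line. Relative to the mean of replicates 1 and 2, the log2 arm ratio of MIR200A in replicate 3 was higher by 1.03 (HCT116), 1.11 (HCT-FU-c) and 0.74 (HCT-Oxa-c). For MIR200B it was higher by 1.34, 1.08 and 0.42 in the same order. The differences were -0.10, 1.51 and 1.53 for MIR141, whose 5p arm had only 5 to 39 counts, and -0.22, 0.49 and 0.03 for MIR200C. Over the same contrast miR-141-3p changed by -1.14, -1.41 and -1.18 on the log2 scale and miR-200a-3p by -0.77, -0.86 and -0.37, while miR-200c-3p changed by -0.24, -0.20 and -0.14. Across all tested miRNAs the interquartile range of such differences was -0.76 to 0.90 in HCT116, so that miR-141-3p and, narrowly, miR-200a-3p (-0.774 against a lower quartile of -0.764) were outside this range and miR-200c-3p within it. The ratio of the loci changed by -0.13, 0.04 and -0.03 only. Replicate number, depth and the level of miR-451a cannot be told apart in this contrast.

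**Figure D3:**
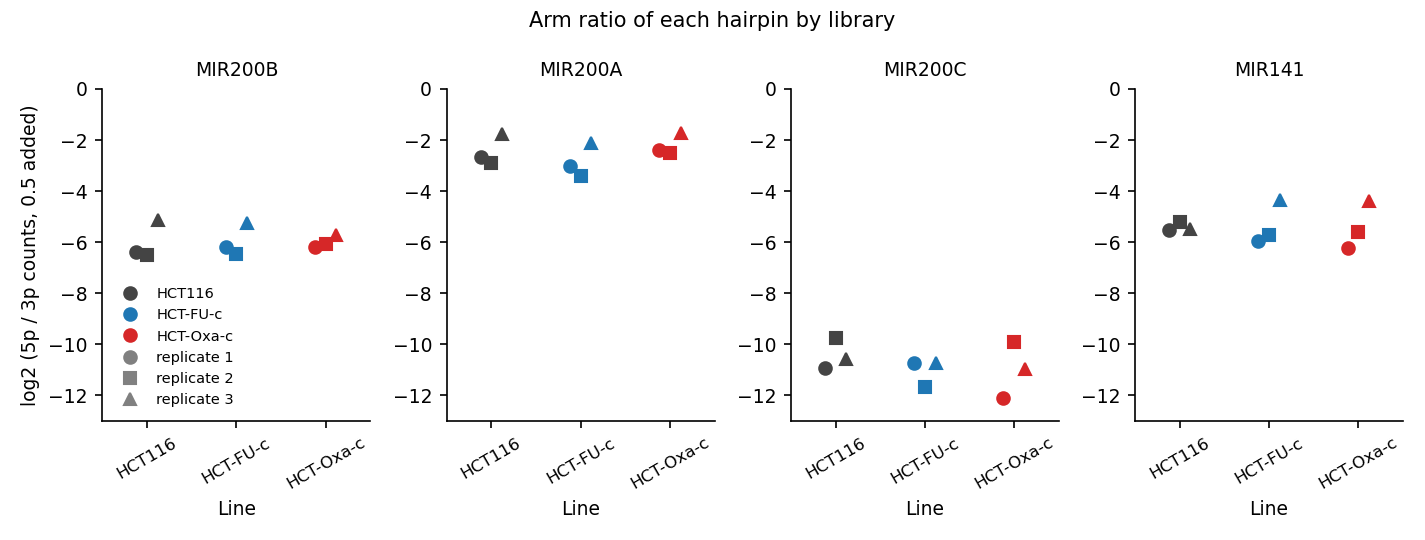
Log2 ratio of 5p to 3p counts (0.5 added to each) of the 4 hairpins with both arms listed, by line and replicate. The 3p arm exceeds the 5p arm throughout, and for MIR200A and MIR200B the replicate 3 library (triangle) is the highest of every line.

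Levels of other miRNAs were compared with the family by the Pearson correlation of log2 CPM with the family's sum over the 9 libraries. The 3 non-members most like it were miR-15b-5p (r = 0.954), miR-425-5p (r = 0.949) and miR-615-3p (r = 0.941). The libraries share their lines and replicate numbers, and without the replicate 3 libraries (n = 6) the same correlations were 0.421, 0.672 and 0.700. These values are a description.

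To place the family among other miRNAs linked to the epithelial state, a list of 14 epithelial-associated miRNAs was examined, of which 12 were tested. In HCT-Oxa-c against HCT116, 1 of the 12 was called higher and 0 lower, where 2.45% of all tested miRNAs were called. The called miRNA was miR-205-5p, a regulator of ZEB1 and ZEB2 like the miR-200 family, with 2, 0 and 0 counts (HCT116), 4, 7 and 0 (HCT-FU-c) and 69, 48 and 31 (HCT-Oxa-c). It passed the low-count filter only through HCT-Oxa-c, where it is high, so its call is a description and supports nothing, and it was lost without HCT116 replicate 2 or HCT-Oxa-c replicate 1. Its HCT116 libraries lay below the floor of 3 counts, so no fold is given, and at up to 36.2 CPM it was far below miR-200c-3p. Of the other 11 tested, edgeR called 0 and DESeq2 0, and miR-192-5p and miR-203a-3p had an unadjusted p below 0.05. The median log2 fold change of these 11 was 0.11, beside -0.01 over all tested miRNAs.

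With the replicate block, 5 of the 12 were called in HCT-Oxa-c against HCT116, 4 higher and 1 lower, and 4 of 11 without miR-205-5p, where 14.7% of all tested miRNAs were called. Beside miR-205-5p the higher ones were miR-203a-3p, an epidermal differentiation miRNA (log2 fold change 0.75 ± 0.14, SE), miR-182-5p of the miR-183 cluster (0.48 ± 0.16) and miR-190a-5p (1.38 ± 0.44), and the lower one was miR-203b-3p (-0.91 ± 0.26). The hairpin of miR-203b lies antisense to that of miR-203a. In CPM, miR-203a-3p measured 2150, 1881 and 2551 (HCT116), 1539, 1086 and 1919 (HCT-FU-c) and 3679, 3066 and 4336 (HCT-Oxa-c). All HCT-Oxa-c libraries lay above all others for this miRNA. Of all tested miRNAs, 16.1% did not overlap between HCT-Oxa-c and HCT116, and 22.9% did not between the sublines. The most abundant of the list, miR-182-5p, measured 5363, 4473 and 18961 CPM (HCT116), 5864, 3835 and 17386 (HCT-FU-c) and 6438, 7430 and 25384 (HCT-Oxa-c), so its replicate 3 libraries exceeded the others of every line.

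In HCT-FU-c against HCT116, 0 of the 12 epithelial-associated miRNAs was called without the block by edgeR, 1 had an unadjusted p below 0.05 (miR-34a-5p) and 0 was called by DESeq2. With it 1 was higher and 2 lower, where 5.45% of all tested miRNAs were called, namely miR-34a-5p, a p53 target miRNA (0.72 ± 0.18, SE), and miR-203a-3p (-0.56 ± 0.14) and miR-203b-3p (-2.52 ± 0.29). Between the sublines 2 were called higher in HCT-Oxa-c, where 4.36% of all tested miRNAs were called. They were miR-205-5p, to which the same limit of the filter applies, and miR-203a-3p (log2 fold change 1.29 ± 0.27, adjusted p = 0.0343, edgeR's quasi-likelihood test). With the block the count was 5 higher and 2 lower (6 of 11 without miR-205-5p), where 26.4% of all tested miRNAs were called, which added miR-203b-3p (1.61 ± 0.28), miR-183-5p (0.79 ± 0.17) and miR-182-5p (0.55 ± 0.16) to the higher and miR-34a-5p (-0.97 ± 0.18) and the intestinal miR-194-5p (-0.76 ± 0.22) to the lower ones. Without miR-205-5p the list's median between the sublines was 0.39, beside -0.07 over all tested miRNAs.

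Of 10 mesenchymal-associated miRNAs 7 were tested, and 0 of them was called in any of the 3 comparisons without the block. At an unadjusted p below 0.05 the count was also 0 in each, as it was by DESeq2. With the block miR-10b-5p, a TWIST1 target linked to invasion, was higher in HCT-Oxa-c than in HCT116 (0.75 ± 0.21, SE) and than in HCT-FU-c (0.59 ± 0.21), and miR-222-3p was lower in HCT-Oxa-c against HCT-FU-c (-0.48 ± 0.15). These are 1 of 7 and 2 of 7, beside 14.7% and 26.4% of all tested miRNAs, so the shares are close to the background. The CPM of miR-10b-5p were 778, 801 and 4559 (HCT116), 1478, 572 and 4286 (HCT-FU-c) and 1228, 1378 and 7788 (HCT-Oxa-c), with replicate 3 far above the others in every line. The most abundant of the list was miR-21-5p, which gave a log2 fold change of -0.15 in HCT-Oxa-c against HCT116, and one of -0.32 in the subline HCT-FU-c, neither of them called.

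**Figure D4:**
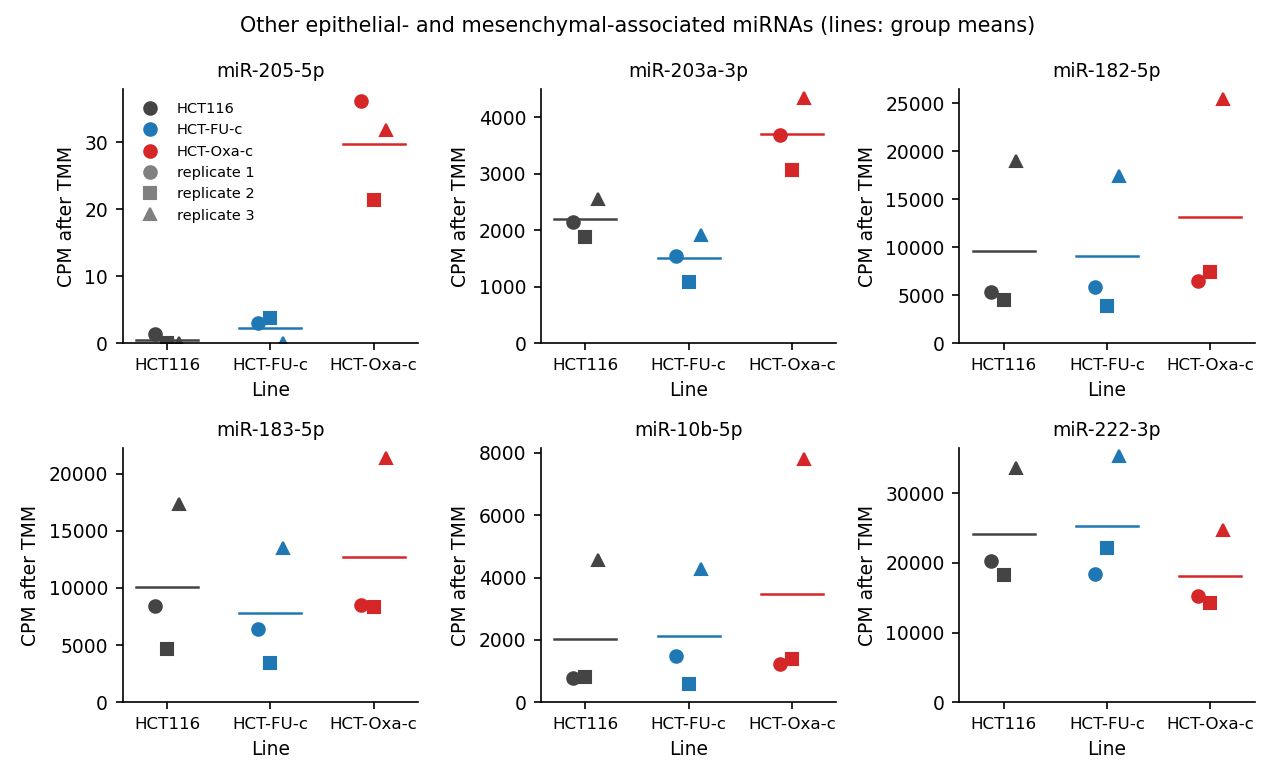
CPM after TMM scaling of 4 epithelial-associated miRNAs (miR-205-5p, miR-203a-3p, miR-182-5p, miR-183-5p) and 2 mesenchymal-associated ones (miR-10b-5p, miR-222-3p) by line and replicate, with lines for the means of 3 libraries. The panels are a selection, and other epithelial-associated miRNAs called with the block are not drawn. Of these, miR-190a-5p was higher and miR-203b-3p lower in HCT-Oxa-c than in HCT116. Against HCT-FU-c, miR-203b-3p was higher and miR-34a-5p and miR-194-5p were lower in HCT-Oxa-c. The miR-205-5p level is above 20 CPM only in HCT-Oxa-c, and for miR-182-5p, miR-183-5p, miR-10b-5p and miR-222-3p the replicate 3 libraries are the highest of every line.

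Markers of cell types the samples could hold were checked on the same scale. Of 4 colonic epithelial markers, miR-192-5p, miR-194-5p, miR-215-5p and miR-375-3p, 3 were tested, and the most abundant was miR-375-3p with a mean of 487 CPM. The summed level of the list was 439 to 994 CPM (HCT116), 456 to 798 (HCT-FU-c) and 458 to 1127 (HCT-Oxa-c), and miR-215-5p had 1 to 18 counts. The family's dominant members therefore exceeded these markers in every library. Of 6 fibroblast and smooth muscle markers 4 were tested, with summed levels of 361 to 704, 243 to 482 and 267 to 424 CPM in the same order of lines, and miR-199a-5p and miR-214-3p were at 3 counts or less in every library. Both endothelial markers were tested, miR-126-3p and miR-126-5p, with summed levels of 680 to 1090, 637 to 1072 and 512 to 872 CPM. Of 6 blood cell markers only miR-451a was tested, and the summed levels were 4.07 to 127, 7.88 to 90.5 and 2.10 to 273 CPM. By edgeR without the block 0 markers were called in any comparison, and by DESeq2 0 as well. An unadjusted p below 0.05 was found for miR-192-5p in HCT-Oxa-c against either other line and for miR-126-5p between the sublines. With the block miR-143-3p was lower in either subline against HCT116, and between the sublines miR-194-5p and miR-126-5p were lower and miR-451a higher in HCT-Oxa-c. The call of miR-451a rests on replicate 3, with 70 counts in HCT-FU-c and 246 in HCT-Oxa-c. Replicates 1 and 2 of these sublines had 0 to 2 counts. The part of these markers in the results above was not tested.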

How the data were processed

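The authors deposited 1 table of read counts per mature miRNA for the 9 libraries, not normalized, and a normalized signal, which is each count divided by 1 factor per library. Small RNA libraries made with a NEXTflex kit were sequenced on an Illumina MiSeq. The submitters' processing notes name CASAVA 1.8, Bowtie 1.1.2, DESeq2 and GRCh38.p7 without their order or settings. The signal was read only to check that factor. Every column was matched to a sample by name. Counts were tested with edgeR 4.0.16 (R 4.3.3), with filterByExpr (minimum count 10, minimum total 15), TMM factors and a prior count of 0.125. Intervals are 95% intervals from the standard error and the test's degrees of freedom. DESeq2 1.42.0, other scalings, filters, left-out libraries and the replicate block were alternatives. The model without the block was tested on counts simulated without a replicate effect, for HCT-Oxa-c against HCT116 only. The model with the block was not tested in this way. The replicate numbers were taken to pair the libraries, since every pair of libraries with the same number in different lines deviated together (r = 0.37 to 0.73). The labels name no batch, pairs of replicates 1 and 2 reached 0.37 to 0.60, and so the correlations set replicate 3 apart and not replicate 1 from replicate 2. The members, the lists and the tests were chosen with earlier results of these data known, supplementary values for the members included. Named beside the members were listed miRNAs called with or without the block, the most abundant of each list and the 3 miRNAs most like the family. Ratios of arms had 0.5 added to each count. The sample titles call the libraries cell culture replicates without saying whether the cultures were grown separately. The study's methods speak of biological replicates. The p-values therefore measure the spread between these samples, which may be technical. Reads are shares of a library and not numbers of molecules.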

Additional observations from a re-analysis of the deposited data

Results flagged for a closer look

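Between the sublines, 1 per drug, miR-200a-5p, the 5p arm of MIR200A, was called different only by the test with the replicate block. With the replicate block, its log2 level in HCT-Oxa-c exceeded that of HCT-FU-c by 0.48 (SE 0.17, adjusted p = 0.0389, edgeR's quasi-likelihood test), and it was higher in 3 of 3 pairs of the same number in HCT-Oxa-c and lower in 3 of 3 in HCT-FU-c, both against HCT116 after TMM scaling. By total counts HCT-FU-c was lower in 2 of 3 pairs. Without the block the adjusted p was 0.326. The 3p arm of the same hairpin gave -0.15 (95% interval -0.46 to 0.16) with the block. In this comparison 26.4% of all tested miRNAs were called with the block, so 1 call among 8 members is no more than that share.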

How the results depend on the processing

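Over the 24 fold changes of members, 348 recomputed values kept their direction and their side of the threshold, 80 changed sign without a call and 1 was newly called. The sign changes concern results whose log2 fold change was at most 0.31 in size in the model of all 9 libraries without the block. A recomputed value could be larger, such as 0.32 for miR-200b-5p in HCT-FU-c against HCT116 without HCT116 replicate 3. The cause of the sign changes was not tested. The replicate block, which uses the pairing by number, gave 1 called member between the sublines and turned miR-200a-3p in HCT-Oxa-c against HCT116 to 0.035, and it changed no other call of a member. Outside the block and the setting with replicates 1 and 2 only, which was chosen after seeing the data, the lowest adjusted p of a member was 0.0610 (miR-200a-5p between the sublines, DESeq2), and over all its alternatives it ran from 0.0389 to 0.735.

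Scaling by total counts in place of TMM moved the median log2 fold change of all tested miRNAs by 0.17 in HCT-FU-c against HCT116 and by -0.18 between the sublines. The number of members above 0 then went from 4 to 7 of 8 and from 3 to 2 of 8, while 4 of 8 lay above the median of all miRNAs in both. With total counts, HCT-FU-c against HCT116 gave 0.052 for miR-200b-3p, 0.11 for miR-200b-5p and 0.16 for miR-200c-3p, and miR-200b-5p was -0.025 between the sublines. With RLE size factors miR-200a-3p in HCT-Oxa-c was 0.0058, miR-429 in HCT-FU-c was -0.044, and between the sublines miR-200c-3p was 0.074 and miR-141-3p 0.012. With DESeq2 these were 0.0057, -0.044, 0.074 and 0.012. With the most abundant miRNA left out of TMM they were 0.046, -0.015, 0.078 and 0.017, and miR-200c-3p in HCT-Oxa-c was 0.021. With only the 6 libraries compared they were 0.0062, -0.019, 0.058 and 0.0014. Without a filter miR-200a-3p and miR-200c-3p in HCT-Oxa-c were 0.043 and 0.029, miR-200b-5p and miR-200c-3p in HCT-FU-c 0.020 and 0.00024, and miR-200c-3p between the sublines 0.029. With 10 counts in every library the values were 0.038 and 0.028 in HCT-Oxa-c, 0.016 for miR-200b-5p in HCT-FU-c and 0.029 for miR-200c-3p between the sublines. With replicates 1 and 2 only, miR-141-5p was -0.30 (HCT-Oxa-c) and -0.12 (HCT-FU-c) against HCT116, and miR-200c-3p was 0.049 between the sublines.

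Leaving out 1 library at a time made no call of a member. In HCT-Oxa-c against HCT116 the values ran from -0.065 to 0.26 for miR-200b-3p, -0.069 to 0.39 for miR-200b-5p, -0.24 to 0.22 for miR-200a-3p, -0.12 to 0.090 for miR-200c-3p, -0.070 to 0.60 for miR-141-3p and -0.24 to 0.56 for miR-141-5p. In HCT-FU-c against HCT116 they ran from -0.24 to 0.012 for miR-200b-3p, -0.44 to 0.32 for miR-200b-5p, -0.039 to 0.39 for miR-200a-3p, -0.10 to 0.094 for miR-429, -0.11 to 0.052 for miR-200c-3p, -0.092 to 0.61 for miR-141-3p and -0.079 to 0.60 for miR-141-5p. Between the sublines they ran from -0.16 to 0.58 for miR-200b-5p, -0.32 to 0.020 for miR-200a-3p, -0.027 to 0.11 for miR-200c-3p, -0.32 to 0.31 for miR-141-3p and -0.26 to 0.054 for miR-141-5p.

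Among the listed miRNAs, called epithelial-associated ones numbered 5 with the block for HCT-Oxa-c against HCT116, 3 for HCT-FU-c against HCT116 and 7 between the sublines, and mesenchymal-associated ones 1 for HCT-Oxa-c against HCT116 and 2 between the sublines. With replicates 1 and 2 only the epithelial-associated counts were 3, 1 and 4. With 10 counts in every library, which drops miR-205-5p and miR-190a-5p, they were 0 in HCT-Oxa-c and 1 between the sublines, with only the 6 libraries compared 1 between the sublines, and without a filter 1 in HCT-FU-c. Leaving out 1 library gave 0 to 1 in HCT-Oxa-c, where 0 came without replicate 2 of HCT116 or replicate 1 of HCT-Oxa-c. The range was 0 to 2 between the sublines. Between the sublines 0 were called without HCT116 replicate 1, HCT-FU-c replicate 1 or 2, or any 1 HCT-Oxa-c library. Without 1 library miR-10b-5p ran from -0.59 to 2.10, miR-182-5p from -0.40 to 1.38 and miR-203b-3p from -1.98 to 0.21 in HCT-Oxa-c against HCT116. Between the sublines miR-10b-5p ran from -0.64 to 1.81, miR-182-5p from -0.32 to 1.49 and miR-203b-3p from -0.014 to 3.70. The lowest of these came without HCT-Oxa-c replicate 3 and the highest without replicate 3 of the other line. With miR-21-5p left out of the total, the family's share in HCT-Oxa-c against HCT116 differed by -0.51 percentage points and not by -0.00096. That share has a smaller total as its base, so these differences are not on the same scale. The ratio of the loci and the arm ratios moved by less than 1 pooled SD between replicates in every alternative, but some changed sign within it. The locus ratio in HCT-FU-c against HCT116 ran from -0.11 to 0.040. The MIR200A arm ratio ran from -0.020 to 0.57 in HCT-Oxa-c against HCT116, while between the sublines it kept its sign, from 0.34 to 0.99. Depth limits miR-141-5p and miR-200c-5p, with 5 to 39 and 4 to 23 counts.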
